A study of Homo sapiens with 18 samples.

Results

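The change in RNA levels over 8 h of direct current field in DAOY aggregates was compared with the change in U87mg aggregates. For each gene the comparison is a difference of 2 differences, the log2 change from 0 h to 8 h in DAOY minus the log2 change from 0 h to 8 h in U87mg, called the line difference below. It was fitted to 12 of the 18 samples of the series, 3 each of DAOY at 0 h, DAOY at 8 h, U87mg at 0 h and U87mg at 8 h. A positive line difference means that RNA of the gene went up more, or down less, in DAOY. DAOY is an established human line from a desmoplastic cerebellar medulloblastoma, and U87mg is an established human line used as a model of glioblastoma. In every group, spheroidal aggregates grown in medium with serum were set in a gel of medium and growth-factor-reduced Matrigel inside a thin channel for 24 h. The 8 h groups then received a continuous field of 250 V/m, whereas the 0 h groups were collected without field. Each sample pooled 3 channels, and the study kept the samples with the best RNA quality. No aggregates kept in a channel for those 8 h with the field off are compared here, and effects of field and of time cannot be told apart in either line.

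Electrotaxis is the directed movement of cells along an electric field. Cells are thought to read a field through ion channels, through receptors that are dragged along the membrane and through the kinase cascades below them, chiefly the ERK and PI3K pathways. A gene whose RNA changes in opposite directions, or in 1 line only, is what this contrast is built to find.

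The 12 libraries held 9194470 to 15610886 estimated counts each. Replicates of 1 group correlated with each other at 0.962 to 0.992 (Pearson, log2 CPM across genes, where CPM is a count scaled to a common library total), with the lowest values among the DAOY libraries at 0 h. The share of counts on mitochondrial transcripts was 2.92% to 5.70% in DAOY at 0 h and 5.97% to 8.44% in DAOY at 8 h, with no overlap, and 4.17% to 5.11% and 2.83% to 5.64% in U87mg. VIM and CD44 RNA, common to many glioma and mesenchymal-like lines, were high in both lines, the astroglial markers GFAP and S100B did not exceed 3.11 TPM in any library, SOX2 did not exceed 0.0858 TPM in U87mg, OTX2 and SOX1 were listed above 0 in the DAOY libraries only, and the granule-lineage markers were mixed. Of those, BARHL1 and NEUROD1 were at or near 0 TPM in both lines, whereas in DAOY at 0 h and 8 h ZIC1 was at 8.28 to 15.8 TPM, ZIC2 at 7.55 to 20.9 TPM, PTCH1 at 6.07 to 10.9 TPM and PAX6 at 17 to 35.1 TPM, and ZIC1, ZIC2, PTCH1 and PAX6 were also measured in U87mg. Among 9 markers of other cell types, PECAM1 reached 12.9 TPM in DAOY and the others stayed at or below 2.44 TPM. In bulk RNA, fewer cells of a kind and less RNA per cell cannot be told apart.

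BDNF was the 1 gene, of 16214 tested, whose 8 h change differed between the lines at a false discovery rate below 0.05, which is 0.00617% of the genes tested. BDNF encodes brain-derived neurotrophic factor, a secreted ligand of the TrkB receptor that promotes the survival and growth of neurons and is induced by membrane depolarisation and calcium entry in neurons. In DAOY the normalised level was 5.43, 5.29 and 3.76 CPM in the 3 libraries at 0 h and 11.2, 13.8 and 14.4 CPM at 8 h. In U87mg it was 41.7, 39.9 and 44.4 CPM at 0 h and 29.2, 28.5 and 26.3 CPM at 8 h. The 0 h and 8 h libraries did not overlap in either line, and the 8 h levels were the higher ones in DAOY and the lower ones in U87mg, while all U87mg libraries stayed above all DAOY libraries. The line difference was 2.01 ± 0.26 on the log2 scale (SE, n = 3 per group, 95% interval 1.46 to 2.57), a 4.04-fold ratio of the 2 changes (edgeR's quasi-likelihood test, Benjamini-Hochberg adjusted p = 0.0406).

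Taken line by line in the same fit, BDNF rose 2.74-fold in DAOY, from 4.83 ± 0.93 to 13.1 ± 1.7 CPM (SD, n = 3), with an adjusted p of 0.00213. In U87mg the fitted ratio was 0.680, from 42.0 ± 2.3 to 28.0 ± 1.5 CPM (SD, n = 3), and its adjusted p of 0.246 did not pass. The background differed widely between the lines, as 6.82% of all genes passed for the 8 h change in DAOY and 0.0247% in U87mg. At 2 h, where 3 further libraries per line were available, BDNF was at 4.0, 3.64 and 5.42 CPM in DAOY and at 37.5, 37.2 and 38.8 CPM in U87mg. These 2 h values overlapped the 0 h values in DAOY and lay between the 0 h and 8 h values in U87mg. The line difference of BDNF at 2 h was -0.01 (unadjusted p = 0.974, from a fit of all 18 samples), and over all genes 0 passed at 2 h by edgeR, with 1058 of 16482 at an unadjusted p below 0.05.

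**Figure D1:**
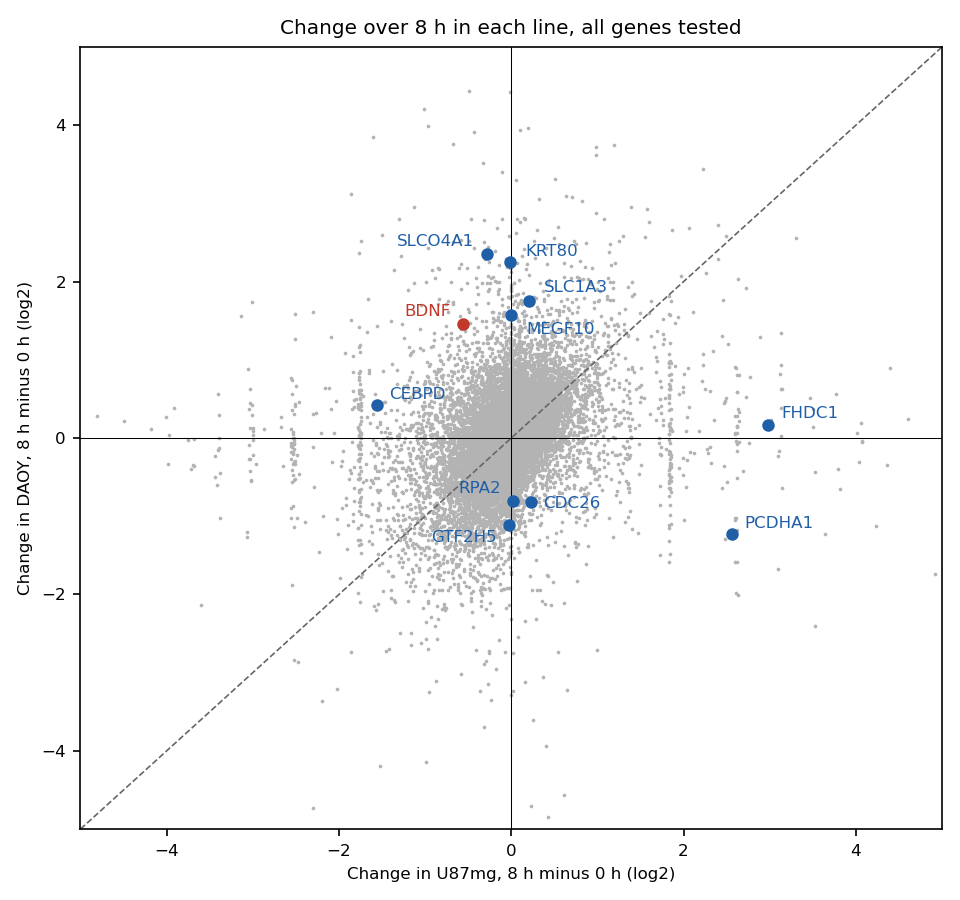
Log2 change from 0 h to 8 h in U87mg (x axis) and DAOY (y axis) of each of the 16214 genes tested (grey; 17 genes lie beyond the axes). The dashed line marks equal changes in both lines; BDNF, in red at -0.56 and 1.46, was the 1 gene whose distance from it passed the false discovery rate, and the genes in blue are the 5 of next smallest p in each direction.

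The size of the BDNF difference moved little with the processing, whereas the call did not hold throughout. Over the 25 settings run, the value lay between 1.68 and 2.18 and the adjusted p between 1.55e-09 and 0.411. DESeq2 gave 2.05 with an adjusted p of 1.55e-09. The call was lost with the replicate number as a block (adjusted p = 0.411), with limma on log2(TPM + 1) (0.101) or log2(TPM + 0.1) (0.141), with protein_coding transcripts only (0.135), and when any library but the first DAOY library at 8 h was left out (0.0576 to 0.281). With the mitochondrial transcripts left out it held, at 2.02 and an adjusted p of 0.038.

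**Figure D2:**
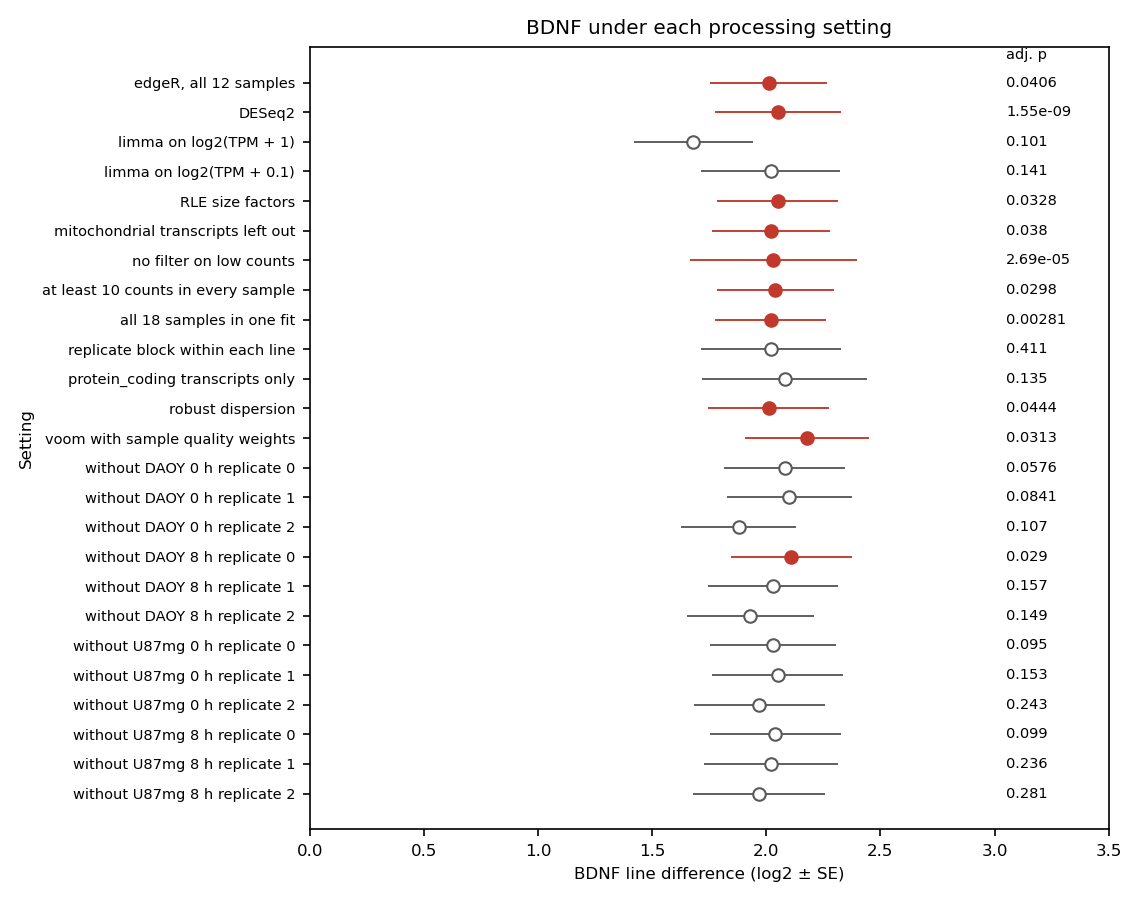
BDNF line difference (log2, points, with SE bars) under each processing setting, with the adjusted p at the right. Red filled points mark settings where BDNF passed a false discovery rate of 0.05; all 25 values lie between 1.68 and 2.18, and open points, where it did not pass, are mostly those with 1 library left out.

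BDNF is transcribed from several alternative start sites, each of which joins its own first exon to a shared coding exon, and the estimated counts were split over them. Per GENCODE 29 the gene lies on chromosome 11, 27654893 to 27722058, on the minus strand of GRCh38. ENST00000395983, which starts at base 27701053, took 48.4% of the gene's counts over the 12 samples. It ranged from 22.4 to 33.9 CPM in U87mg at 0 h and from 7.11 to 13 CPM at 8 h, and was listed at 0 in all 3 DAOY libraries at 0 h. ENST00000395980, which starts at base 27701633, and ENST00000584049 held identical counts in every library, 15.4% of the total each, so the reads did not separate them. ENST00000395980 ranged from 0 to 2.97 CPM in DAOY at 0 h and from 2.78 to 5.73 CPM at 8 h, and from 3.44 to 4.59 and 2.11 to 5.86 CPM in U87mg. No BDNF transcript passed the test singly, and the 2 transcripts that did among 47567 belonged to KIF20B and SYNRG, named after their values were seen. BDNF-AS, which overlaps the gene on the other strand, stayed at 0.283 to 2.66 CPM, and reads of the pair cannot be told apart if the counting ignored strand.

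Of the 5 BDNF start regions in the RefSeq promoter table of GRCh38.p14, 1 lies within 50 bases of the start of ENST00000395980. None lies within 50 bases of the start of ENST00000395983, which held 48.4% of the counts, so that start could not be searched. The window at ENST00000395980 is shown because its start carried BDNF counts in both lines and its rodent counterpart is known for calcium-dependent induction. Whether it bears on the line difference was not tested. The window runs from 250 bases before to 50 bases after the start, chr11:27701572-27701871, minus strand, and capitals mark the heptamer CACGTCA, which resembles the cAMP response element read by CREB.
BDNF start region: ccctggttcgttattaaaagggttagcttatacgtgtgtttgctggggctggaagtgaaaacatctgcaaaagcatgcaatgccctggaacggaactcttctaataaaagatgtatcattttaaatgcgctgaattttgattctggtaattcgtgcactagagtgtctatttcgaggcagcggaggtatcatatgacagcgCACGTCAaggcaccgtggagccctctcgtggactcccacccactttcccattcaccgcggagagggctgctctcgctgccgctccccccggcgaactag
The match begins 49 bases before the start. Searched on both strands, CACGTCA occurred in 1.97% of all 35116 windows of the table, the full palindrome TGACGTCA in 1.85% and in 0 of the 5 BDNF windows, and the shorter TGACG, which overlaps the heptamer on the other strand, in 24.6%. The AP-1 element TGANTCA was in 7.71% of all windows and in 0 of the 5, and the E-box CACGTG was in 7.26% and in 1 of the 5.

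Other neurotrophins and the proteins that process or bind them were taken as a list of 12 genes, chosen after their values were seen, of which 9 had enough counts to be tested. The median line difference of these 9 was 0.30, against -0.03 over all genes, and only BDNF passed. NTRK2, which encodes TrkB, was at 5.89 to 14.0 CPM in DAOY at 0 h and 4.58 to 8.36 CPM at 8 h, and was listed at 0 in all 9 U87mg libraries. NTRK3, the receptor of neurotrophin 3, was measured in both lines, at 4.18 to 5.45 CPM in DAOY and 5.91 to 6.68 CPM in U87mg at 8 h. SORT1, which encodes the sorting receptor sortilin, had a line difference of 0.33 ± 0.25 (SE), with overlapping levels in both lines. The protease gene FURIN, whose product cleaves the BDNF precursor, ranged from 46.6 to 120 CPM over the 12 libraries.

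Behind BDNF, the 5 genes with the smallest p among positive line differences were MEGF10, SLCO4A1, CEBPD, KRT80 and SLC1A3, and none passed edgeR's test (adjusted p = 0.194 to 0.365). All 5 were among the 31 genes that DESeq2 called, which are 0.226% of the 13691 genes to which it gave an adjusted p. MEGF10, an engulfment receptor of glia and muscle stem cells, was at 21.9, 19.1 and 16.3 CPM in DAOY at 0 h and at 53.9, 68.5 and 45.3 CPM at 8 h. In U87mg it stayed at 20.9 to 25.5 CPM at 0 h and 21.7 to 23.8 CPM at 8 h. The libraries separated in DAOY and overlapped in U87mg, with a line difference of 1.57 ± 0.25 (SE).

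SLC1A3, the glial glutamate transporter also known as EAAT1, showed the same arrangement. In DAOY it was at 20.5, 14.4 and 12.2 CPM at 0 h and 54.6, 52.4 and 49.3 CPM at 8 h, and in U87mg at 63.9 to 110.2 and 83.1 to 106.6 CPM. Its change of 1.76 in DAOY passed (adjusted p = 0.00168) and its line difference of 1.55 ± 0.30 did not. SLCO4A1, an organic anion transporter, went from 4.98, 3.65 and 5.79 CPM to 28.6, 18.9 and 24.8 CPM in DAOY. In U87mg, 1 of the 3 libraries at 8 h lay far above the others, at 36.2 against 14.7 and 18.3 CPM. Without that library SLCO4A1 was the only gene called, at a line difference of 3.11 (adjusted p = 0.0243), and with it the value was 2.64 ± 0.44.

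KRT80, an epithelial keratin of the intermediate filaments, was at 0.340 to 0.813 CPM in DAOY at 0 h and 2.47 to 3.93 CPM at 8 h, and between 36.3 and 51.7 CPM in U87mg at both times. Its line difference was 2.26 ± 0.40, and it passed together with BDNF when all 18 samples shared a fit (adjusted p = 0.0358). Over the alternatives the value was 0.88 to 2.47. KRT80 held 3, 9 and 8 estimated counts in DAOY at 0 h, so its ratio in that line rests on few reads. CEBPD differed from these genes in that its larger change was in U87mg. CEBPD, a transcription factor of stress and inflammatory responses, was at 5.88, 4.53 and 5.63 CPM in U87mg at 0 h and 1.79, 2.17 and 1.31 CPM at 8 h, with no overlap. In DAOY it was at 16.6 to 19.6 and 18.6 to 29.8 CPM, and the line difference was 1.98 ± 0.34.

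Among negative line differences 0 genes passed edgeR's test, and the 5 of smallest p were FHDC1, PCDHA1, CDC26, RPA2 and GTF2H5 (adjusted p = 0.194 to 0.379). DESeq2 called FHDC1, CDC26, RPA2 and GTF2H5 (its adjusted p = 0.000995 to 0.0414) and did not call PCDHA1. FHDC1 encodes a formin-family protein that acts on actin filaments and microtubules. In U87mg it was at 0.997, 0.587 and 0.906 CPM at 0 h and at 5.10, 5.13 and 9.36 CPM at 8 h, with 2.35, 1.33 and 1.78 CPM in between at 2 h. In DAOY it was at 4.12 to 6.91 CPM at 0 h and 5.73 to 6.86 CPM at 8 h. The U87mg libraries separated at each step in time, and those of DAOY overlapped. The rise in U87mg was 7.92-fold and passed (adjusted p = 0.0236), as did 3 other genes in that line, while the line difference of -2.81 ± 0.48 had an adjusted p of 0.194. Over the alternatives the line difference was -3.01 to -0.96. FHDC1 held 10, 7 and 14 estimated counts in U87mg at 0 h, so its ratio in that line rests on few reads.

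RPA2, GTF2H5 and CDC26 were lower at 8 h in every DAOY library and overlapped between 0 h and 8 h in U87mg. RPA2, a subunit of the single-stranded DNA binding complex of replication and repair, went from 107.4, 105.4 and 100.4 to 63.4, 56.9 and 56.7 CPM in DAOY, and in U87mg it ranged from 87.9 to 105.2 CPM over both times. GTF2H5, the smallest core subunit of the transcription and repair factor TFIIH, went from 25.8, 20.8 and 27.8 to 12.2, 11.0 and 10.7 CPM in DAOY. CDC26, a subunit of the anaphase-promoting complex, went from 73.0, 58.1 and 82.9 to 41.5, 39.1 and 39.0 CPM. Each of the 3 changes in DAOY passed (adjusted p = 0.00369 to 0.00859), and the line differences were -0.83 ± 0.17, -1.09 ± 0.23 and -1.04 ± 0.21. CDC26 overlaps SLC31A1 and PRPF4 on the other strand, both expressed at over 50 CPM, so its counts are uncertain if the counting ignored strand.

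PCDHA1, a clustered protocadherin that shares its last exons with the other alpha protocadherins, went from 6.45, 3.81 and 6.50 to 2.203, 1.98 and 2.82 CPM in DAOY. In U87mg it held 0 to 1.4 estimated counts per library at 0 h and 2.7 to 5.7 at 8 h, so the ratio in that line rests on very few reads.

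**Figure D3:**
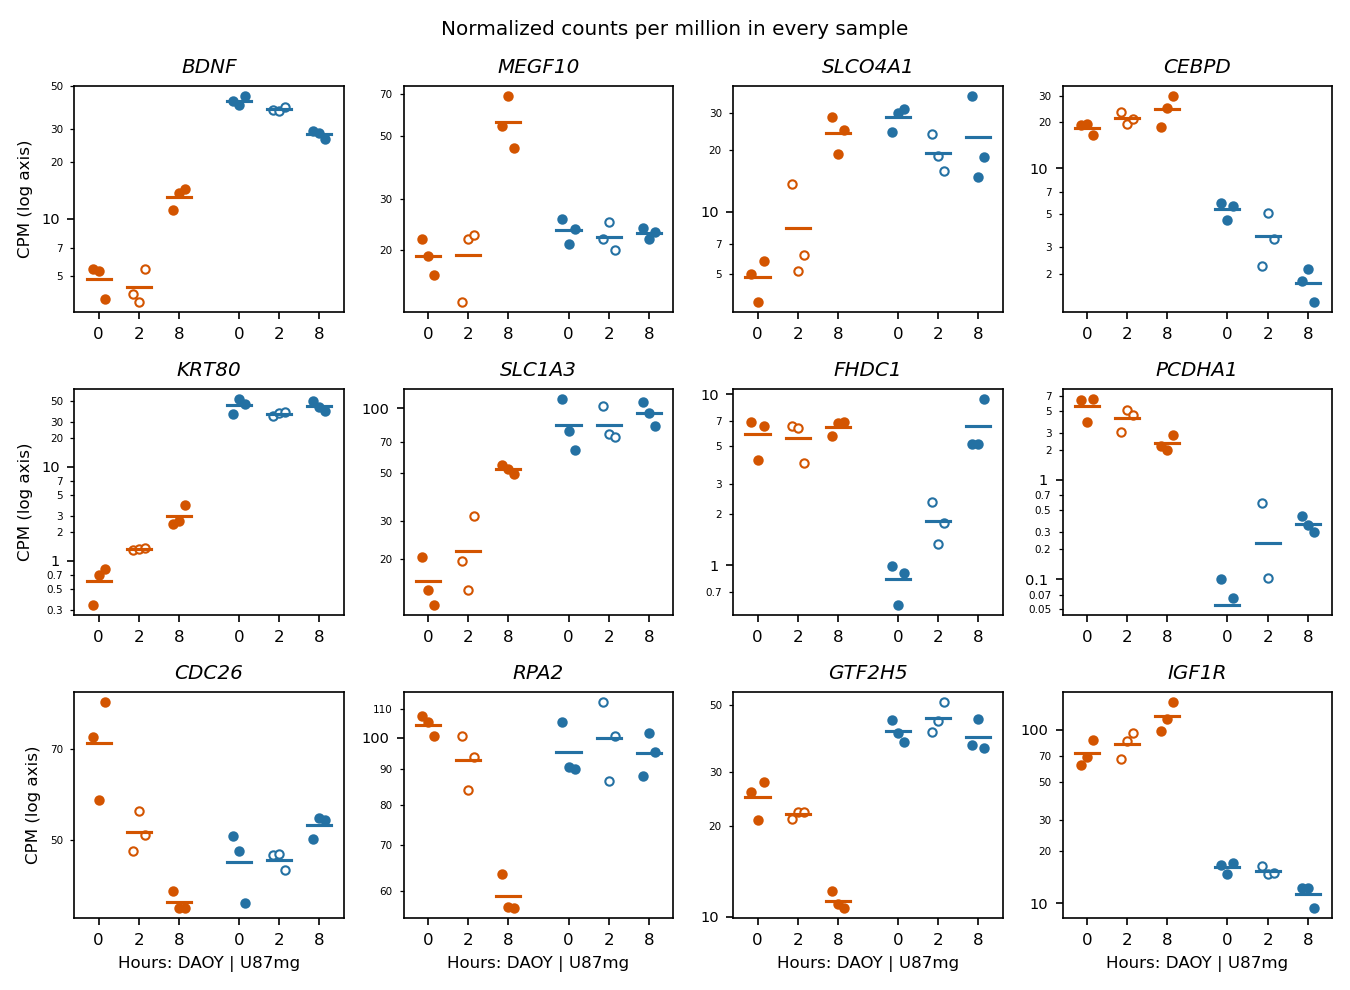
Normalised CPM (log axis) of BDNF, the 5 genes of next smallest p in each direction and IGF1R in every sample, with DAOY at the left in orange and U87mg at the right in blue. Each point is 1 sample at 0, 2 or 8 h, open at 2 h, bars are means, and values of 0 (PCDHA1 in 2 U87mg samples) are off the axis; the 0 h and 8 h points of BDNF move apart in opposite directions in the 2 lines.

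The genes were next described by list. Since only 1 gene passed, members are counted at an unadjusted p below 0.05, beside the same share over all 16214 genes, which was 3.35% with a positive line difference and 3.92% with a negative one. Growth factor receptors and their ligands, which start the ERK and PI3K cascades at the cell surface, had 9 of 31 members with a positive difference at that threshold and 0 with a negative one. The median line difference of the list was 0.63, against -0.03 over all genes, and 25 of 31 members lay above 0. The median change was 0.52 in DAOY and -0.25 in U87mg. With any 1 library left out the count stayed between 8 and 11, and it was 6 and 5 with limma on log2(TPM + 1) and log2(TPM + 0.1). The 9 were BDNF, IGF1R, VEGFC, EGFR, INSR, MET, EPHA2, FGFR3 and FGFR1. Except for BDNF, IGF1R and EGFR, they are named here after their values were seen.

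IGF1R and INSR, the related receptors of insulin-like growth factor and insulin, had levels that separated in both lines and in opposite directions. IGF1R went from 62.8, 69.3 and 86.9 to 97.9, 115.3 and 143.7 CPM in DAOY and from 16.6, 14.8 and 16.9 to 12.2, 12.3 and 9.36 CPM in U87mg. Its line difference was 1.20 ± 0.26 (SE), with an adjusted p of 0.379 by edgeR and 0.0189 by DESeq2. Over all alternatives its value was 0.48 to 1.36 and its adjusted p 0.0173 to 0.874, with the lowest value from limma on log2(TPM + 1). The lowest adjusted p was from edgeR without a filter on low counts. INSR went from 24.6 to 28.9 CPM up to 30.3 to 40.05 CPM in DAOY and from 10.2 to 14.5 CPM down to 6.64 to 9.26 CPM in U87mg, a line difference of 1.01 ± 0.28. EGFR, the epidermal growth factor receptor, was at 375.3, 257.3 and 320.6 CPM in DAOY at 0 h and 392.8, 498.1 and 620.0 CPM at 8 h. In U87mg EGFR was at 273.1, 262.8 and 284.5 CPM at 0 h and 200.5, 228.4 and 241.1 CPM at 8 h, and its line difference was 0.95 ± 0.25.

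In MET, VEGFC and EPHA2 the larger change was in DAOY. MET, the receptor of hepatocyte growth factor, was at 153 to 220 CPM at 0 h and 277 to 460 CPM at 8 h in DAOY, and overlapped in U87mg, at 527 to 633 and 487 to 652 CPM. VEGFC, a ligand of lymphatic endothelial growth, was at 13.4 to 26.0 and 43.5 to 45.5 CPM in DAOY and at 99.5 to 108 and 99.5 to 124 CPM in U87mg. EPHA2, an ephrin receptor, was at 5.89 to 10.2 and 17.2 to 27.5 CPM in DAOY. The changes of MET, VEGFC and EPHA2 in DAOY passed, at 1.00, 1.23 and 1.64 on the log2 scale. FGFR1 had a line difference of 0.63 ± 0.27, and FGFR3 did not exceed 1.76 CPM at 0 h or 8 h, was listed at 0 in U87mg at 8 h and overlapped between the times in DAOY. None of the 9 but BDNF passed the line difference (adjusted p = 0.379 to 0.639).

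**Figure D4:**
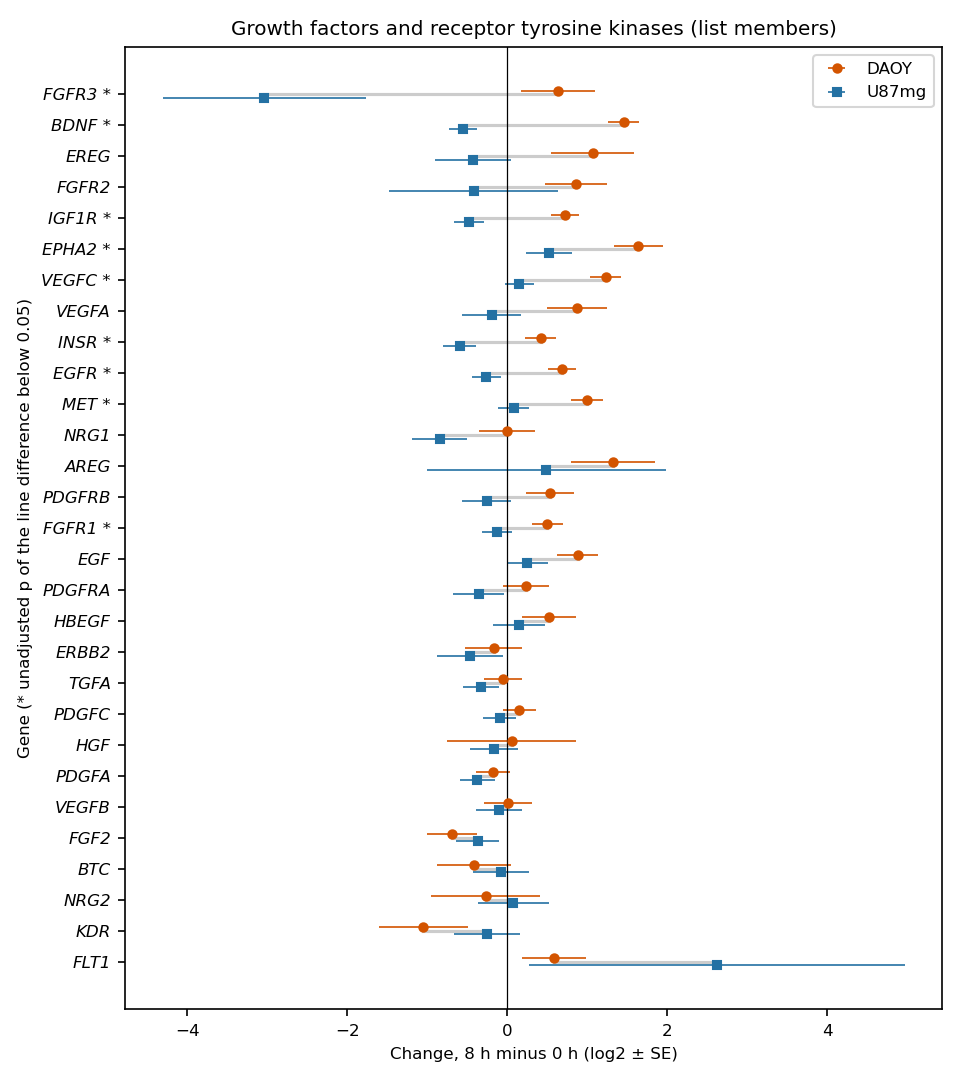
Log2 change from 0 h to 8 h with SE in DAOY (orange circles) and U87mg (blue squares) of 29 of the 31 growth factor and receptor genes tested, ordered by the line difference. Asterisks mark the 9 members at an unadjusted p below 0.05, all with the DAOY point to the right of the U87mg point; NTRK2, at 0 in U87mg, is not drawn.

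ERK feedback genes, which ERK signalling induces and some of which damp it, had a median of 0.29. Of their 21 members, 5 had a positive difference at an unadjusted p below 0.05 and 0 a negative one. These were SPRY4, SPRY2, SPRED3, DUSP4 and ETV1, of which the last 3 are named after their values were seen. SPRY4, a Sprouty inhibitor of receptor tyrosine kinase signalling, was at 25.5, 23.8 and 20.1 CPM in DAOY at 0 h and 57.1, 61.7 and 42.5 CPM at 8 h, and at 44.6 to 52.96 and 46.7 to 59.5 CPM in U87mg. It had a line difference of 1.14 ± 0.24 (adjusted p = 0.379, and 0.0149 by DESeq2 to 0.805 over the alternatives), and SPRY2 one of 0.99 ± 0.25. The count was 3 to 6 with any 1 library left out, and 3 without DAOY replicate 0 at 8 h, U87mg replicate 0 at 0 h or U87mg replicate 2 at 8 h.

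Targets of YAP and TAZ, coactivators that respond to cell shape and adhesion, had 4 positive and 1 negative of 27 and a median of 0.36, and 7 positive and 2 negative without U87mg replicate 0 at 0 h. Of the 27 members, 22 lay above 0. CTGF, a matricellular protein, was at 281.0, 154.9 and 137.4 CPM in DAOY at 0 h and 78.7, 118.4 and 65.0 CPM at 8 h, and at 14.4 to 27.8 and 24.2 to 57.1 CPM in U87mg. Its line difference was -1.96 ± 0.51. CYR61, a relative of CTGF named after its values were seen, was higher at 8 h in both lines and more so in DAOY, where it went from 33.5 to 57.3 CPM up to 114 to 238 CPM (line difference 1.09 ± 0.41). F3, the tissue factor that starts coagulation, had a line difference of 1.52 ± 0.39. Its levels at 0 h and 8 h were 64.2 to 115 and 117 to 205 CPM in DAOY, and 266.4 to 311.9 and 130.8 to 259.1 CPM in U87mg. The times did not overlap in either line, by narrow margins. Among immediate early genes, the transcription factors that cells induce first after a stimulus, 3 of 29 were positive and 3 negative, with EGR2 at 1.82 ± 0.56 and EGR3 at -1.54 ± 0.51. The counts of that list ranged from 1 to 5 positive and 1 to 4 negative with 1 library left out, the lowest positive count without DAOY replicate 1 or U87mg replicate 2 at 0 h and the highest without U87mg replicate 2 at 8 h.

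Nuclear long noncoding RNAs and the host genes of small nucleolar RNAs had the largest share of the 26 lists, 7 of 21 positive and 0 negative, with a median of 0.49. SNHG3, a small nucleolar RNA host, was at 30.4 to 33.6 CPM in DAOY at 0 h and 64.0 to 87.04 CPM at 8 h, against 54.5 to 59.0 and 61.2 to 66.3 CPM in U87mg (line difference 1.01 ± 0.20). Summed over its transcripts in poly-A RNA, NEAT1, a noncoding RNA of nuclear paraspeckles, differed at 8 h on the U87mg side. In U87mg it was at 527.5, 665.0 and 461.5 CPM at 0 h and 299.3, 330.4 and 267.5 CPM at 2 h. At 8 h it was at 198.9, 242.3 and 172.3 CPM there. In DAOY the means were 82.56, 47.25 and 85.36 CPM at 0 h, 2 h and 8 h. The DAOY libraries at 0 h overlapped those at 2 h and at 8 h. The mean was thus lower at 2 h than at 0 h in both lines. At 2 h the NEAT1 line difference was 0.07 (unadjusted p = 0.845, by edgeR in a fit of all 18 samples). The NEAT1 line difference at 8 h of 1.47 ± 0.34 had an adjusted p of 0.394, which was 0.0172 by DESeq2. It ranged from 7.12e-05 to 0.805 over the alternatives, the lowest from edgeR without a filter on low counts. The count of the list was 4 to 9 with any 1 library left out, and 4 without DAOY replicate 2 at 8 h or U87mg replicate 1 at 0 h. MALAT1, MIAT, DANCR, SNHG12 and MEG3, named after their values were seen, made up the rest of the 7, at 0.76 to 2.49.

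Hypoxia and glycolysis genes had 6 of 40 positive and 0 negative and a median of 0.64, and this rested on 1 library. Without the last DAOY library at 8 h, labelled replicate 2, the median was 0.05 and the counts were 3 positive and 2 negative. Without DAOY replicate 0 or 1 at 8 h it was 11 or 14 positive, and without U87mg replicate 0 at 8 h it was 11. CA9 and NDRG1 are named after their values were seen. CA9, a carbonic anhydrase induced under low oxygen, was at 67.9 CPM in that library, was listed at 0 in the other 2 DAOY libraries at 8 h, and did not exceed 0.453 CPM in DAOY at 0 h. NDRG1, another hypoxia-induced gene, was at 472 CPM in that library and at 37.1 and 38.8 CPM in the other 2. ADM, the peptide hormone adrenomedullin, separated between the times in DAOY, at 7.24, 6.06 and 5.28 CPM in DAOY at 0 h and 16.1, 15.4 and 24.8 CPM at 8 h. PFKFB4, a regulator of glycolysis, was at 5.09 to 8.24 and 21.6 to 23.8 CPM in DAOY. In U87mg the levels of both overlapped between 0 h and 8 h, and the line differences were 1.47 ± 0.40 and 1.80 ± 0.49.

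In Notch, Hedgehog and Wnt pathway genes 6 of 43 were positive and 1 negative, with a median of 0.35. LEF1, a nuclear effector of Wnt signalling, separated in both lines and in opposite directions, at 25.0 to 34.8 and 38.1 to 51.5 CPM in DAOY and 5.62 to 5.98 and 3.45 to 4.53 CPM in U87mg (line difference 1.14 ± 0.28). Only 32.6% of the LEF1 counts were on protein_coding transcripts, and its value was 0.99 to 2.18 over the alternatives. HHIP, a Hedgehog-binding antagonist, stayed at or below 0.299 CPM in U87mg and was listed at 0 there at 8 h. Axon guidance genes had 4 of 45 positive and 0 negative (median 0.25), led by SEMA7A at 1.35 ± 0.42 and EPHB4 at 1.01 ± 0.37, and 8 positive without U87mg replicate 0 at 0 h. Matrix proteins and proteases had 4 positive and 2 negative of 41 (median 0.27), with ADAMTS1 at -1.0 ± 0.36 and TIMP3, an inhibitor of matrix proteases, at 0.87 ± 0.33. Their positive count was 1 without U87mg replicate 1 or 2 at 0 h, 2 without U87mg replicate 0 or 2 at 8 h and 7 without U87mg replicate 0 at 0 h. Integrin and focal adhesion genes had 3 of 35 and 0 (median 0.14), with FHL2 at 0.71 ± 0.19 and ITGA7 at 1.66 ± 0.52, and 7 positive and 1 negative without DAOY replicate 0 at 0 h. The motility genes of the study's PCR panel, a list the study chose for its own assays, had 6 positive and 1 negative of 80 (median 0.08), led by IGF1R and EGFR, and 4 to 8 positive and 0 to 3 negative with 1 library left out.

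Ion channels and pumps, the direct candidates for sensing a field, had 3 of 46 positive and 0 negative and a median of 0.17. The counts were 1 and 0 without U87mg replicate 2 at 0 h (median 0.07) and 5 and 1 without DAOY replicate 0 at 0 h. KCNJ2, an inward rectifier potassium channel, had a line difference of 1.35 ± 0.45, and KCNK2, a stretch-sensitive potassium channel, did not exceed 3.41 CPM. PI3K, AKT and mTOR genes had 2 positive and 2 negative of 41 (median -0.12), with PIK3CD, the delta catalytic subunit, at 1.20 ± 0.33 and the stress-induced mTOR inhibitor DDIT4 at 1.88 ± 0.69. DDIT4 was at 41.2 CPM in DAOY replicate 2 at 8 h, the library that stood apart for CA9, against 19.7 and 9.90 CPM in the other 2, and its value was 1.21 without it. TGF-beta and BMP genes had 2 of 39 and 0 (median 0.07), with the activin-binding FST at 1.70 ± 0.54 and GDF15 at 1.06 ± 0.41, and 7 positive without DAOY replicate 0 at 0 h, 5 with the replicate block and 1 without U87mg replicate 0 at 0 h or replicate 2 at 8 h. Targets of p53 had 1 positive and 2 negative of 29 (median -0.08), and PLK2, a kinase among them, stood at -1.63 ± 0.43.

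In the remaining lists few members passed an unadjusted p of 0.05 with all 12 libraries. Splicing factors had 1 positive and 1 negative of 49, with FUBP1 at 1.06 ± 0.21 and SRSF6 at -0.69 ± 0.27. FUBP1, a single-stranded DNA and RNA binding protein, was at 112.3, 109.2 and 135.7 CPM in DAOY at 0 h and 338.6, 407.8 and 331.8 CPM at 8 h, and 77.5 to 103.9 and 119.2 to 140.8 CPM in U87mg. Each of the chemokine and NF-kB (40), unfolded protein and integrated stress response (35), lipid synthesis (35) and circadian clock (21) lists had 0 positive and 1 negative member. Their leading members were TNFAIP3 at -0.86 ± 0.39, CHAC1 at -1.99 ± 0.67, ABCA1 at -1.37 ± 0.59 and NR1D2 at -0.57 ± 0.21. These counts depended on single libraries. Without DAOY replicate 0 at 0 h the chemokine and NF-kB list had 7 positive and 0 negative members and a median of 0.50 in place of 0.10, and voom with quality weights gave 6 positive. TNFAIP3 was at 204.2 CPM in that library, against 79.1 and 95.6 CPM in the other 2 of its group, and its line difference without it was -0.35. Without DAOY replicate 2 at 8 h ABCA1 was at -2.33. With 1 library left out the negative count was 1 to 4 in the stress response list, 0 to 2 in lipid synthesis and 1 to 2 in the clock list.

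Replication and mitosis genes (52 members), cytosolic ribosomal protein genes (85), heat shock proteins (26), histone genes (22), NRF2 targets and metallothioneins (28) and the mitochondrial mRNAs (13) had 0 members in either direction. Their medians were -0.09, 0.00, -0.15, 0.04, -0.02 and 0.44, and for the mitochondrial mRNAs all 13 values lay above 0. The histone genes are the replication-dependent ones, and only 22 of 72 had enough counts in poly-A RNA to be tested. With 1 library left out these lists had at most 3 members in a direction, except NRF2 targets, with 4 positive without DAOY replicate 2 at 0 h, and voom with quality weights gave 6 positive mitochondrial mRNAs and 4 negative heat shock genes.

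**Figure D5:**
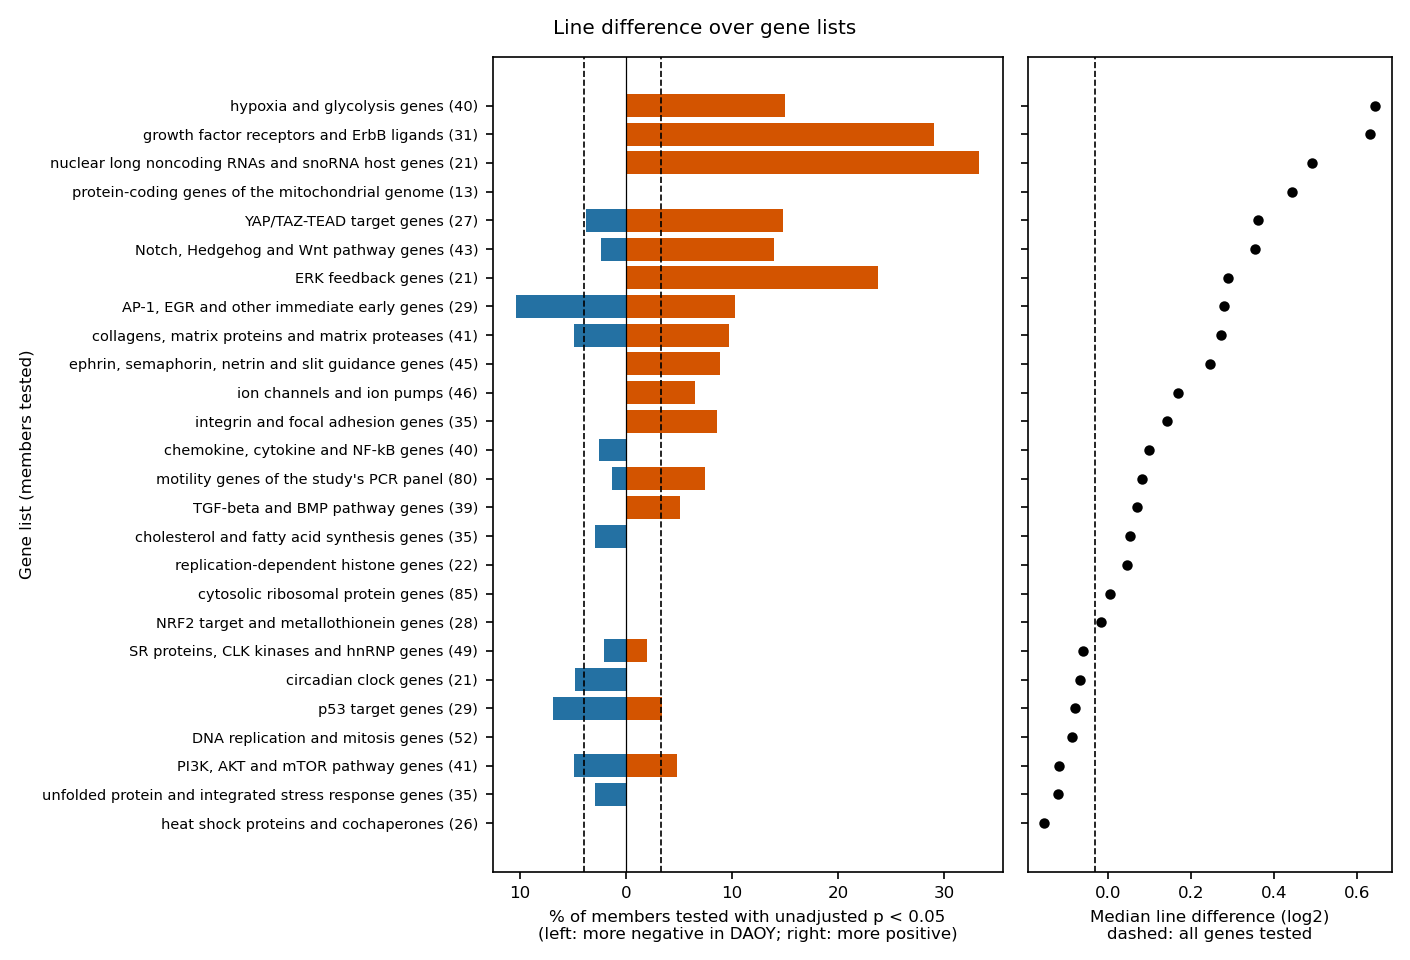
For each of 26 gene lists, the share of tested members at an unadjusted p below 0.05 with a positive (orange, right) or negative (blue, left) line difference, and at the right the median line difference (log2). Dashed lines give the same over all 16214 genes, 3.35%, 3.92% and -0.03; nuclear noncoding RNAs, growth factor genes and ERK feedback genes show the highest orange shares, 33.3%, 29.03% and 23.8%.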

How the data were processed

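Poly-A RNA of 18 samples was sequenced by the study from stranded libraries, single-end. For each transcript and sample the deposited table gives TPM and an estimated count, both of which the authors made with Kallisto 0.43.0 on the GENCODE 24 transcripts (GRCh38.p5 per the labels). It also holds p-values, q-values and fold changes of the authors' Sleuth 0.28.1 comparisons, which were not used here. Whether Kallisto used the strand of the reads is not given in the sources used here.

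The 145326 transcripts were summed to 32490 gene names, of which 8029 are clone-based and may merge several genes. Sums were rounded, and 16214 genes passed filterByExpr on the 12 samples at 0 h and 8 h. Libraries were scaled by TMM, and the line difference was tested with glmQLFit and glmQLFTest (edgeR 4.0.16, R 4.3.3) with Benjamini-Hochberg adjustment over all genes, called below 0.05. CPM values are scaled by TMM over all 18 libraries, apart from single transcripts and overlapping genes, which are CPM without it. Alternatives used DESeq2 1.42.0 and limma 3.58.1. The edgeR fit without a filter, DESeq2, and limma on log2 CPM were run on simulated counts, and the other steps were not. Only genes that had passed the filter were simulated, so the edgeR alternative without a filter on low counts was not checked in this way. Replicate pairs differed by more than sampling noise. The study calls the replicates biological, and the labels do not tie them to separate cultures, so p-values measure the spread between these samples.

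Named genes were drawn from the called genes, the 5 of smallest p in each direction, and, in each list with no called member, the 2 members of smallest p, while others are said to be chosen later. The comparison, the 26 lists and this rule were chosen with earlier results of these data known. Gene positions are from GENCODE 29, and start regions from RefSeq. Values of 1 list member are not reported here.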

Additional observations from a re-analysis of the deposited data

Results flagged for a closer look

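BDNF was the 1 gene for which the test of the difference between the lines itself passed, with an 8 h change that was 2.01 higher in DAOY than in U87mg on the log2 scale. All 3 DAOY samples at 8 h lay above the DAOY range at 0 h, and all 3 U87mg samples at 8 h lay below the U87mg range at 0 h. Groups of 3 samples are too small for a search for single outlying samples.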

How the results depend on the processing

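With 1 gene called more positive in DAOY and 0 more negative, the counts moved with most settings. DESeq2 called 31 (23 and 8), of which 29 had an unadjusted edgeR p below 0.05 and 3 had values beyond 20 on the log2 scale. Without a filter on low counts edgeR called 165 of 31220 (113 and 52), with a smallest adjusted p of 8.06e-66. In that fit CA9, whose level in DAOY at 8 h rests on 1 library, had an adjusted p of 6.01e-50. All 18 samples in one fit gave 2 (2 and 0), single transcripts gave 2 (2 and 0), and sample quality weights in voom, chosen after seeing the data, gave 2 (1 and 1). With limma on TPM (pseudocounts of 1 and 0.1) and with protein_coding transcripts only, 0 were called, with 1256, 1167 and 818 genes at an unadjusted p below 0.05. With 1 library left out, 0 to 3 were called (0 to 1 and 0 to 2), and the BDNF call held only without DAOY replicate 0 at 8 h. The cause of these differences was not tested. RLE size factors, robust dispersion, at least 10 counts in every sample, the mitochondrial transcripts left out and a minimum of 1 on the log2 scale kept the count at 1.

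The replicate numbers were taken as a block in 1 fit, where 0 genes were called (1063 at an unadjusted p below 0.05). Deviations of same-numbered samples correlated at -0.23 to 0.37 over the 6 pairs, which are too few to decide whether the numbers pair samples. The main fit has no block because the study's methods state none.

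Of 2090 values of 88 named genes under the alternatives, 4 changed sign: ELOVL6 was at 0.17 and 0.16 with limma on both TPM scales, NQO1 at 0.63 without DAOY replicate 2 at 0 h (-1.11 to 0.63 with 1 library left out), and CA9 at -4.19 without DAOY replicate 2 at 8 h (-4.19 to 7.43). RLE moved the median over all genes from -0.03 to 0.01.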

Other observations

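In 24 of the 16214 genes tested the changes in the lines had opposite signs and each had an unadjusted p below 0.05. Of these, 14 were higher at 8 h in DAOY and lower in U87mg, and 10 were the reverse. Of them 0 passed the false discovery rate in both lines, and how many would arise by chance was not tested. Beside BDNF, IGF1R, LEF1 and F3, the first direction held ZNF608, a zinc finger gene that went from 31.1, 37.2 and 43.9 to 70.9, 75.5 and 90.0 CPM in DAOY and from 2.59, 5.45 and 3.30 to 1.65, 2.44 and 0.805 CPM in U87mg. Its line difference was 2.26 ± 0.45 (SE), with an adjusted p of 0.365 by edgeR and 0.000329 by DESeq2, and of 2.73e-06 to 0.736 over all alternatives. The lowest was from edgeR without a filter on low counts. The first direction also held PTPRE, a receptor-type tyrosine phosphatase, at 9.72 to 12.9 and 16.6 to 19.9 CPM in DAOY and 35.6 to 45.5 and 24.5 to 34.6 CPM in U87mg. ZNF608 and PTPRE were chosen after their values were seen. The reverse direction held CTGF, PLK2, GRPEL2 and RSPRY1, at means of 22.9 to 81.7 CPM in U87mg at 0 h. It also held PCDHA1, ZNF100, ZNF525, GTF2IRD2P1, CKMT1A and ZNF544, at means of 0 to 0.182 CPM there, so their ratios in U87mg rest on very few reads. In the first direction WFDC3 and KCNS1 had means of 0 and 0.0677 CPM in DAOY at 0 h. Apart from CTGF, PLK2 and PCDHA1, these genes are named after their values were seen.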
